A study of Homo sapiens with 10 samples.

Results

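NADPH-producing enzymes were described in PC3 cells exposed to GW3965, an agonist of the liver X receptors (LXRs), nuclear receptors that sense oxysterols. The group held 9 genes of the 62656 in the deposited table: the malic enzymes ME1, ME2 and ME3, the pentose phosphate enzyme PGD, the isocitrate dehydrogenases IDH1 and IDH2, the folate enzymes MTHFD1 and ALDH1L1, and the transhydrogenase NNT. They were chosen by gene name for their function. ME1 was put at their head with its value in the comparison of GW3965 with DMSO already known, so that the values of this comparison are a description of the 9 genes and support nothing by themselves.

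PC3 is an established human prostate cancer cell line derived from a bone metastasis, so that all values come from 1 line. All 10 libraries were made from PC3 cells that were starved overnight and then kept for 24 h in RPMI-1640 with L-Glu, 5 with DMSO as vehicle and 5 with 1 µM of GW3965. Values were deposited as RPKM, that is, reads divided by the length of the gene in kilobases and by a factor of the library. Nothing in the sources used here says that the 5 libraries of a group came from separate cultures, and p-values then measure only the spread between these libraries, which may be technical.

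NADPH is the electron donor of reductive synthesis, above all of fatty acids and sterols, and of the enzymes that keep glutathione and thioredoxin reduced. In the cytosol it is regenerated by the oxidative pentose phosphate pathway, by malic enzyme 1, by isocitrate dehydrogenase 1 and by the folate cycle. In mitochondria its sources include malic enzyme 3, isocitrate dehydrogenase 2 and the transhydrogenase of the inner membrane. Malic enzyme 1 turns malate into pyruvate, and this closes the cycle by which citrate carries acetyl units to the cytosol for fatty acid synthesis.

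The recovered depth was 30428662 to 41635691 reads per library, and the 7SL RNAs took 12.0 to 23.2% of them. The canonical LXR target genes that served as a check of the treatment, ABCA1, ABCG1, SREBF1 and MYLIP, were higher with GW3965 in 4 of 4 cases (limma), with log2 fold changes from 0.74 to 2.29. SREBF1 and MYLIP missed the threshold when the replicate number was used as a block, with a highest adjusted p of 0.0724 (limma). The keratins KRT8, KRT18 and KRT19 lay between 36.3 and 157 RPKM in group means, whereas KLK3, the gene of prostate-specific antigen, had no read in any library and CDH1, the gene of E-cadherin, had 0.249 RPKM with DMSO and 0.322 RPKM with GW3965. Of the markers of other cell types, CD3E had 1 read in all libraries together, PTPRC was at most 0.0175 RPKM in group means and the highest was COL1A1 with 1.00 RPKM with DMSO and 0.854 RPKM with GW3965.

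ME1 was the member that differed between the conditions. With DMSO its level was 21.5, 19.7, 21.1, 22.9 and 21.0 RPKM in libraries 1 to 5, and with GW3965 it was 28.9, 29.1, 29.6, 30.5 and 29.1 RPKM. The GW3965 libraries lay above the DMSO libraries in 5 of 5 cases, with a gap between the groups. The mean rose from 21.2 ± 1.16 RPKM to 29.4 ± 0.669 RPKM (SD, n = 5 each), a log2 fold change of 0.47 ± 0.05 (SE, 95% interval 0.36 to 0.58), or 1.39-fold (limma, adjusted p = 0.00266 over 20402 genes). These levels rested on 2137 to 3885 reads per library, and the coefficient of variation between libraries was 5.44% with DMSO and 2.27% with GW3965. In bulk RNA, a change in the number of cells that express a gene and a change in RNA per cell cannot be told apart.

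ME1 was 1 of 8 tested members past the threshold, and 0 were lower (limma). The background over all tested genes was 0.147% called higher and 0.0098% called lower. ME1 was also the 1 member whose groups did not overlap, where 1.35% of all tested genes had every GW3965 library above and 0.49% below. Since ME1 was known when the genes were chosen, nothing is read from these shares. At an unadjusted p under 0.05 the count of members was 1 as well, against 1427 of all tested genes (6.99%). The median log2 fold change of the 8 tested members was 0.08 and 5 of 8 were positive, against a median of 0 and 51.1% positive over all tested genes.

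**Figure D1:**
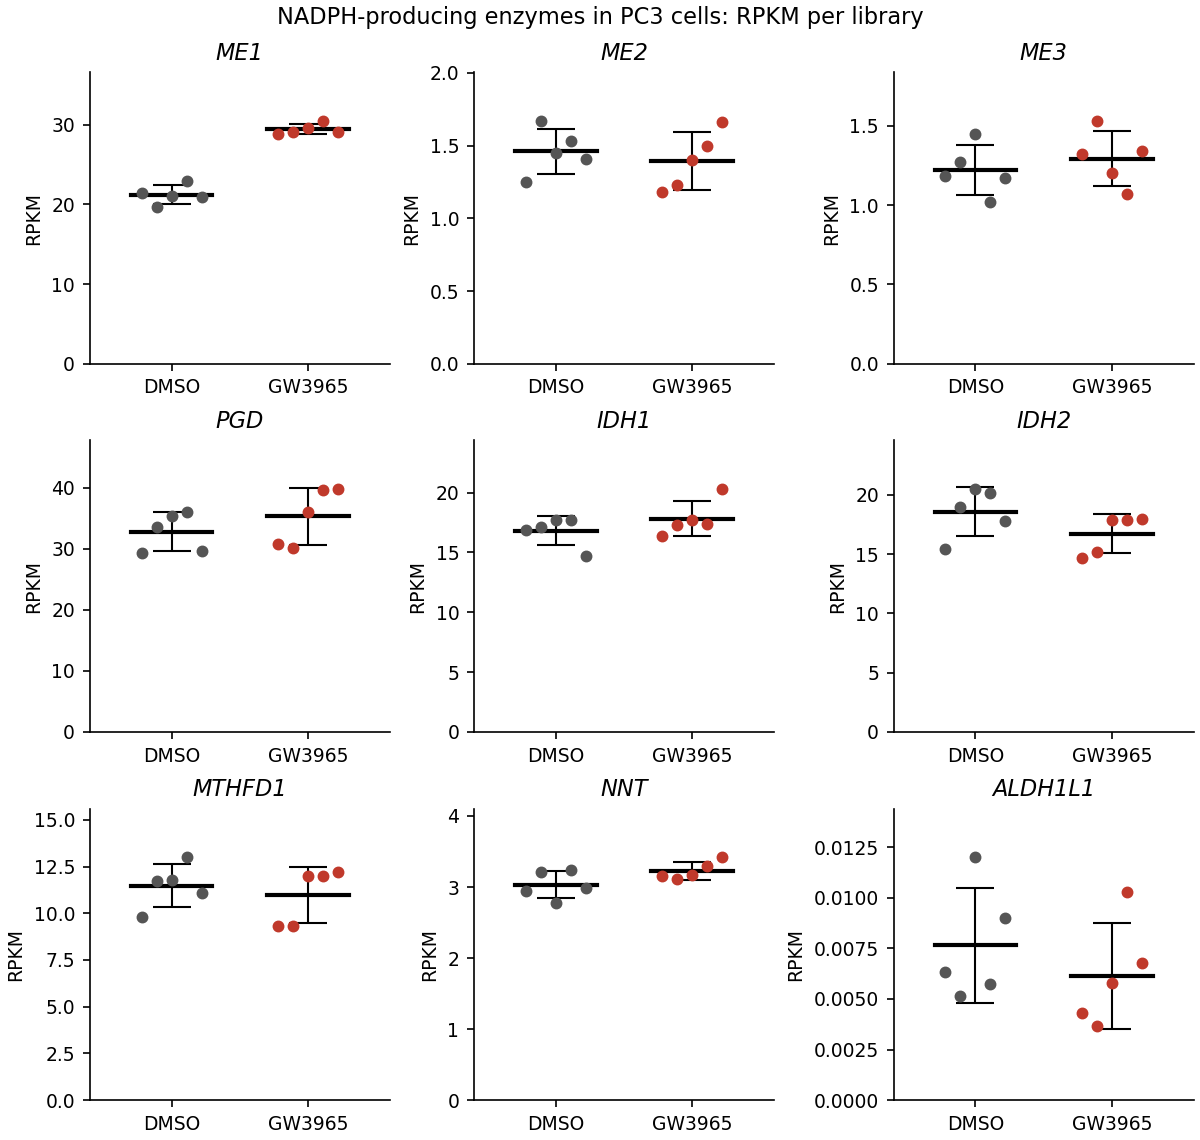
RPKM of the 9 NADPH-producing enzymes in each library (points, DMSO in grey and GW3965 in red), with the mean and SD of 5 libraries (bars), each axis starting at 0. ME1 is the gene whose 5 GW3965 points (28.9 to 30.5 RPKM) all lie above its DMSO points (19.7 to 22.9 RPKM).

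The other malic enzymes were expressed at far lower levels. ME2, a mitochondrial enzyme that mainly uses NAD+, had 1.25, 1.67, 1.45, 1.53 and 1.41 RPKM with DMSO and 1.18, 1.23, 1.40, 1.50 and 1.66 RPKM with GW3965. The groups overlapped over most of their range, and the log2 fold change was -0.07 ± 0.11 (SE, 95% interval -0.32 to 0.18; limma, adjusted p = 0.957). ME3, the mitochondrial enzyme that uses NADP+, had 1.18, 1.27, 1.45, 1.02 and 1.17 RPKM with DMSO and 1.32, 1.53, 1.20, 1.07 and 1.34 RPKM with GW3965. Its groups overlapped as well, with a log2 fold change of 0.07 ± 0.12 (SE, 95% interval -0.19 to 0.34; limma, adjusted p = 0.956). ME3 was counted with 827 reads in the 5 DMSO libraries and 892 in the 5 GW3965 libraries, the fewest among the tested members.

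Of the summed RPKM of the malic enzymes, ME1 held 88.8 ± 1.28% with DMSO and 91.6 ± 0.648% with GW3965 (SD, n = 5 each). The ranges of this share did not meet, at 87.0 to 90.0% and 90.6 to 92.2%. The sum itself was 23.9 ± 1.02 RPKM with DMSO and 32.1 ± 0.633 RPKM with GW3965. These shares depend on the gene lengths behind the RPKM, which were 3338 bases for ME1, 15897 for ME2 and 3838 for ME3 as the deposited values imply. Counted in reads, without length, ME1 held 71.7 ± 2.65% with DMSO and 78.4 ± 1.78% with GW3965, and ME2 held 23.5 and 17.6%. Both scales thus gave ME1 as the main malic enzyme transcript in either condition.

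PGD encodes 6-phosphogluconate dehydrogenase, which makes NADPH and ribulose 5-phosphate in the oxidative branch of the pentose phosphate pathway. It had the highest level of the 9 genes, with 29.3, 33.6, 35.4, 36.1 and 29.6 RPKM with DMSO and 30.8, 30.1, 36.1, 39.7 and 39.8 RPKM with GW3965. GW3965 libraries 4 and 5 lay above all DMSO libraries, while GW3965 libraries 1 and 2 lay among the lowest. The log2 fold change was 0.10 ± 0.10 (SE, 95% interval -0.12 to 0.32; limma, adjusted p = 0.917), so that the whole interval lay below the lower bound of that of ME1.

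IDH1, the cytosolic and peroxisomal NADP+-dependent enzyme that oxidises isocitrate, had 16.9, 17.1, 17.7, 17.7 and 14.7 RPKM with DMSO and 16.4, 17.3, 17.7, 17.4 and 20.3 RPKM with GW3965. DMSO library 5 was the lowest and GW3965 library 5 the highest, and the other 8 libraries lay from 16.4 to 17.7 RPKM. The log2 fold change was 0.08 ± 0.07 (SE, 95% interval -0.07 to 0.24; limma, adjusted p = 0.895).

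IDH2, its mitochondrial counterpart, had 15.4, 19.0, 20.5, 20.2 and 17.8 RPKM with DMSO and 14.7, 15.2, 17.9, 17.9 and 18.0 RPKM with GW3965. GW3965 libraries 1 and 2 were below every DMSO library, and the other 3 lay inside the DMSO range. It had the most negative value among the members, a log2 fold change of -0.15 ± 0.09 (SE, 95% interval -0.35 to 0.06; limma, adjusted p = 0.834), and did not pass the threshold. The ratio of IDH1 to IDH2 in RPKM had a median of 0.875 with DMSO (0.824 to 1.10) and 1.12 with GW3965 (0.973 to 1.14), with overlap between the groups. Of the summed RPKM of the 9 members, IDH2 held 15.6 to 18.3% with DMSO and 13.9 to 15.1% with GW3965. The sum includes ME1, which held 20.0 ± 1.50% of it with DMSO and 25.5 ± 1.81% with GW3965, and a higher ME1 lowers the share of every other member.

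Among the folate enzymes, MTHFD1, the cytosolic trifunctional enzyme that oxidises methylene-tetrahydrofolate with NADP+, had 9.79, 11.7, 11.8, 13.0 and 11.1 RPKM with DMSO. With GW3965 it had 9.33, 9.30, 12.0, 12.0 and 12.2 RPKM, so that libraries 1 and 2 were below all DMSO libraries and the rest were inside their range. The log2 fold change was -0.07 ± 0.10 (SE, 95% interval -0.30 to 0.16; limma, adjusted p = 0.955). ALDH1L1, which oxidises formyl-tetrahydrofolate with NADP+, was close to the limit of detection. It had 3, 3, 5, 3 and 4 reads with DMSO and 2, 2, 3, 5 and 3 reads with GW3965, or 0.00766 and 0.00615 RPKM in the group means, and was neither tested nor given a fold change.

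NNT, the proton-driven transhydrogenase that reduces NADP+ with NADH, had 2.95, 3.21, 2.78, 3.24 and 2.98 RPKM with DMSO and 3.15, 3.11, 3.17, 3.29 and 3.42 RPKM with GW3965. The GW3965 libraries lay in the upper part of the DMSO range or above it. Its log2 fold change was 0.09 ± 0.06 (SE, 95% interval -0.05 to 0.23; limma, adjusted p = 0.851).

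**Figure D2:**
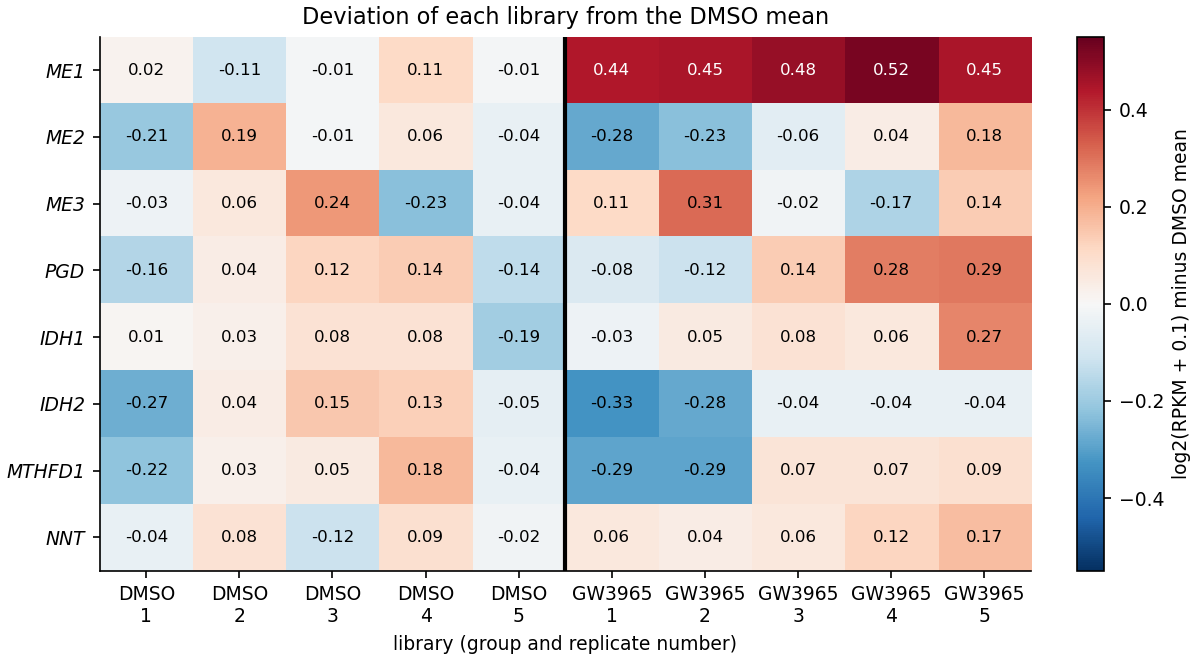
Difference of each library's log2(RPKM + 0.1) from the DMSO mean, for the 8 tested members (rows) in the 10 libraries (columns), with the value in each cell. The ME1 row runs from 0.44 to 0.52 in the GW3965 libraries and from -0.11 to 0.11 in the DMSO libraries, and the IDH2 and MTHFD1 rows are lowest in GW3965 libraries 1 and 2 and DMSO library 1.

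By RPKM with DMSO, the order of the members was PGD, ME1, IDH2, IDH1, MTHFD1, NNT, ME2, ME3 and ALDH1L1. PGD was above ME1, ME1 above IDH2, IDH1 above MTHFD1, MTHFD1 above NNT, NNT above ME2 and ME3 above ALDH1L1 within 5 of 5 libraries of each condition. IDH2 was above IDH1 in 4 of 5 DMSO libraries and 2 of 5 GW3965 libraries, and ME2 above ME3 in 4 and 3, so that these neighbours did not differ beyond their spread. ME1 and IDH2 had overlapping DMSO ranges across libraries although ME1 was higher within each library. The DMSO mean of ME1 was above that of 90.0% of tested genes, that of PGD above 93.6%, that of NNT above 49.6% and that of ME3 above 26.2%. The order is per length, and the lengths that the deposited values imply were 17357 bases for MTHFD1 and 12018 for NNT. These are longer than the 9377 and 8245 exon bases of these genes in GENCODE 29. Shorter lengths would raise both genes, and the place of MTHFD1 below ME1, IDH2 and IDH1 depends on the length used.

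The levels of PGD, IDH2 and MTHFD1 varied together with a library difference that the conditions did not follow. The first principal component of all tested genes held 19.6% of the variance, with scores of 21.07 to 31.63 in DMSO libraries 1 and 5 and GW3965 libraries 1 and 2 and of at most 0.84 in the other 6. PGD was lowest in these 4 libraries, at 29.3 to 30.8 RPKM against 33.6 to 39.8 RPKM in the rest. ME1 had 21.5 and 21.0 RPKM in the DMSO libraries among these 4 and 28.9 and 29.1 RPKM in the GW3965 libraries, inside the range of its own condition each time. With the component as a covariate, ME1 had a log2 fold change of 0.46 (limma, adjusted p = 0.00139), and IDH2 had -0.18 with an adjusted p of 0.208 (limma). MTHFD1 had -0.11 in the same fit, with an adjusted p of 0.339 (limma).

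The level of ME1 was also set against 6 genes of connected steps. The ratio of ME1 to MDH1, the cytosolic malate dehydrogenase that supplies malate, had a median of 1.15 with DMSO (1.06 to 1.23) and 1.66 with GW3965 (1.48 to 1.68), both in RPKM. Against IDH1 the ratio was 1.28 with DMSO (1.15 to 1.43) and 1.68 with GW3965 (1.43 to 1.76), with ranges that met at 1.43, and against PGD it was 0.634 (0.586 to 0.736) and 0.822 (0.730 to 0.967), with overlapping ranges. Against ACLY, which splits citrate in the cytosol, it was 0.387 (0.367 to 0.459) and 0.497 (0.446 to 0.528), and the ranges overlapped as well. Against FASN, the fatty acid synthase that consumes NADPH, it was 0.279 (0.269 to 0.281) with DMSO and 0.201 (0.196 to 0.216) with GW3965, the opposite direction and without overlap. Against SCD, a desaturase of the same synthesis, it was 0.108 (0.0926 to 0.116) and 0.0793 (0.0754 to 0.0859), likewise lower with GW3965 and without overlap.

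The genes around the members were taken from 7 lists of 94 genes, 82 of them tested, of which 3 were higher (3.66%) and 0 lower (limma), against the background of 0.147% and 0.0098%. At an unadjusted p under 0.05 (limma) there were 12 list genes, 8 of them in the list of lipid synthesis. Over all tested genes the share was 6.99%, a background that also applies to the counts at this threshold given for single lists. All 3 genes called higher belonged to the list of lipid synthesis. Its enzymes include users of NADPH, such as FASN and TECR. Others do not use it directly, among them ACACA, ACACB, ELOVL6, NSDHL and the desaturases SCD, FADS1 and FADS2. Of its 19 genes, 3 were higher (15.8%), the median log2 fold change was 0.14 and 18 values were positive. These genes were listed with the response of lipid synthesis to GW3965 in these libraries known.

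FASN rose from 77.1 ± 5.38 to 145 ± 3.27 RPKM (log2 fold change 0.91 ± 0.06 SE; limma, adjusted p = 0.000108) and SCD, the stearoyl-CoA desaturase, from 204 ± 25.4 to 365 ± 13.8 RPKM (0.85 ± 0.08; limma, adjusted p = 0.00151). FADS2, the first desaturase of polyunsaturated fatty acids, rose from 72.4 ± 5.41 to 93.6 ± 2.79 RPKM (0.37 ± 0.06; limma, adjusted p = 0.0459). FADS2 missed the threshold in 14 of 22 alternative settings, with adjusted p up to 0.14 (limma). In 9 of these a library was left out, and of the 10 fits without a library the call held only in that without DMSO library 4. ACACA and FADS1 also had all GW3965 libraries above the DMSO libraries without passing the threshold, with adjusted p of 0.143 and 0.222 (limma). Over all tested genes, 1.35% had every GW3965 library above. At the other end of the list, TECR, which reduces enoyl-CoA with NADPH in fatty acid elongation, had 19.5 and 19.1 RPKM.

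In the list of malate, pyruvate and citrate cycling, 0 of 14 tested genes passed the threshold and 1 had an unadjusted p under 0.05 (limma). Its median log2 fold change was 0.01. The ends of the list were PC, the pyruvate carboxylase, with 0.21 (adjusted p = 0.532) and SLC25A10, a mitochondrial dicarboxylate carrier, with -0.11 (limma, adjusted p = 0.955). MDH1 had 18.3 ± 0.32 RPKM with DMSO and 18.5 ± 1.23 RPKM with GW3965 (limma, adjusted p = 0.99).

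In the pentose phosphate list, 0 of 9 tested genes passed, 0 had an unadjusted p under 0.05 (limma) and the median was 0.02. The values ran from -0.10 for PRPS1, a phosphoribosyl pyrophosphate synthetase, to 0.16 for RBKS, the ribokinase. In the isocitrate and oxoglutarate list, 0 of 8 passed, 0 had an unadjusted p under 0.05 (limma) and the values ran from -0.10 for IDH3A, a subunit of the NAD+-dependent isocitrate dehydrogenase, to 0.11 for GLUD1, the glutamate dehydrogenase. In the folate list, 12 of 16 genes were tested, 0 passed, 0 had an unadjusted p under 0.05 (limma) and the median was -0.01. TYMS, the thymidylate synthase, was at the lower end with -0.24 ± 0.17 (SE; limma, adjusted p = 0.865).

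In the list of NAD and NADP supply, 0 of 8 tested genes passed and 2 had an unadjusted p under 0.05 (limma). NADK2, the mitochondrial NAD kinase that makes NADP+, was at the upper end with 0.21 (adjusted p = 0.711) and NAPRT, the nicotinate phosphoribosyltransferase, at the lower with -0.24 (limma, adjusted p = 0.864). NADSYN1 had all GW3965 libraries above the DMSO libraries at group means of 2.59 and 2.68 RPKM, a log2 fold change of 0.05 (limma, adjusted p = 0.93). Of all tested genes, 1.35% had every GW3965 library above the DMSO libraries and 0.49% had every one below. In the list of reductases and glutathione genes, 12 of 17 genes were tested, 0 passed and 1 had an unadjusted p under 0.05 (limma). AKR1C3, an aldo-keto reductase, had all GW3965 libraries below the DMSO libraries at 0.702 and 0.507 RPKM (log2 fold change -0.40; limma, adjusted p = 0.591). The other end was SLC7A11, the cystine transporter, with 0.31 ± 0.29 (SE). Its value was 0.10 without DMSO library 4, 0.16 without GW3965 library 1, 0.19 without GW3965 library 2 and 0.51 without DMSO library 1.

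**Figure D3:**
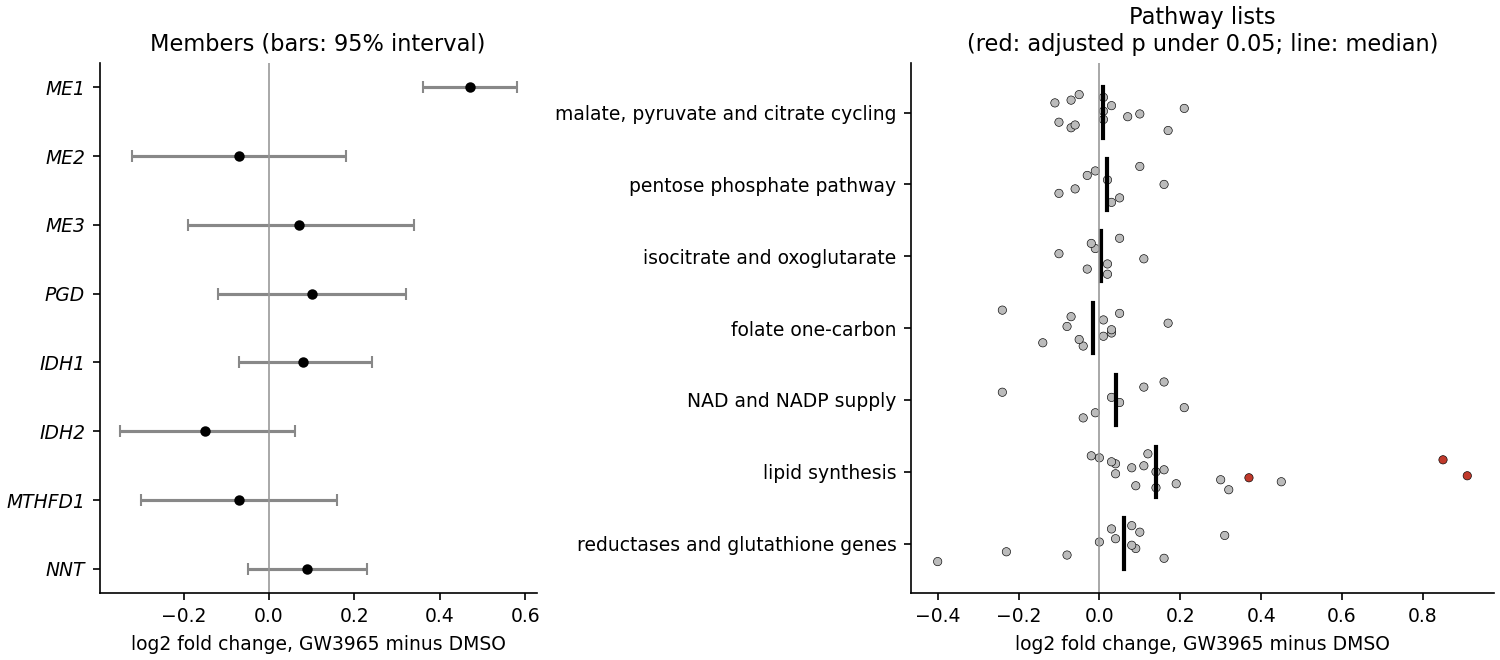
Log2 fold changes of GW3965 against DMSO on the log2(RPKM + 0.1) scale: on the left the 8 tested members with their 95% intervals, on the right each tested gene of the 7 lists (points, red where the adjusted p is under 0.05) and the list medians (black lines). ME1 (0.47) is the member whose interval does not include 0, and the red points FASN (0.91), SCD (0.85) and FADS2 (0.37) are all in the lipid synthesis list.

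Genes whose pattern over the 10 libraries was most like that of ME1 were sought among 7658 tested genes whose mean reached 5 RPKM, by the root-mean-square difference of log2 values centred on each gene's mean. Among the nearest were FADS2 (0.056), SHISA3 (0.061), CPT1A (0.074) and SERPINB5 (0.089). SHISA3, a regulator of receptor trafficking, rose from 46.1 to 64.8 RPKM (log2 fold change 0.49; limma, adjusted p = 0.0171), and CPT1A, the carnitine palmitoyltransferase of mitochondrial fatty acid import, from 12.9 to 18.6 RPKM (0.53; limma, adjusted p = 0.0139). SERPINB5, the gene of maspin, rose from 12.5 to 16.1 RPKM (0.37; limma, adjusted p = 0.0486). The measure picks genes with a like difference between the conditions, so that these values are a description. SERPINB5 missed the threshold in 14 of 22 alternative settings, 9 of them without a library (each but DMSO library 4), with adjusted p up to 0.161 (limma). SHISA3 missed it in 9, with adjusted p up to 0.0721, when DMSO library 2, 3 or 5 or GW3965 library 2, 3 or 4 was left out and in 3 other settings. CPT1A missed it in 6, with adjusted p up to 0.0625, when DMSO library 3 or GW3965 library 2, 3 or 4 was left out and in 2 other settings.

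**Figure D4:**
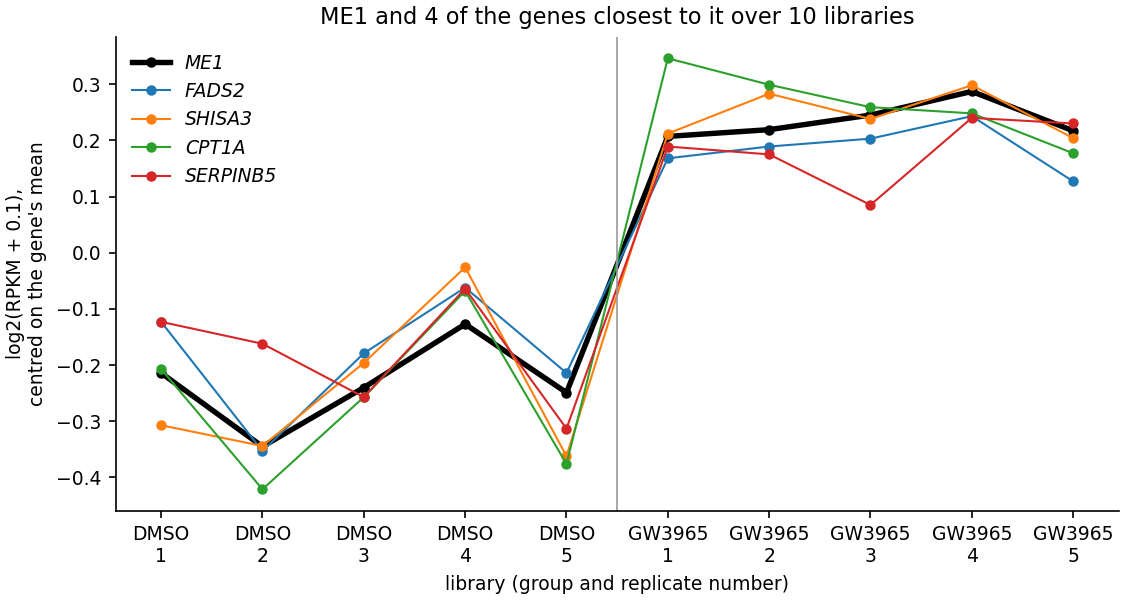
Log2(RPKM + 0.1) of ME1 (black) and of 4 of the genes closest to it, each centred on its own mean, by library; lines only link the points of 1 gene. ME1 runs from -0.345 to -0.127 in the DMSO libraries and from 0.207 to 0.287 in the GW3965 libraries, and all 5 genes shown are below 0 in the former and above 0 in the latter.

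The members lie on 9 chromosomes in GENCODE 29 (GRCh38). ME1 is at chr6:83210389-83431071 on the minus strand with 1 annotated transcript, PGD at chr1:10398592-10420144 on the plus strand, IDH1 at chr2:208236227-208266074 and IDH2 at chr15:90083045-90102504, both on the minus strand. The exons of ME1 share no base with another annotated gene, and the processed pseudogene AL391416.1 lies within its span. Genes on the opposite strand share 94 exon bases with IDH1 (IDH1-AS1), 217 with NNT (NNT-AS1) and, with MTHFD1, 101 (AL122035.1), 756 (AL122035.2) and 178 (ZBTB25). Whether the counting used the strand is not given in the sources used here, so that reads of these stretches cannot be assigned with certainty. The pseudogenes MTHFD1P1, with 3476 reads over the DMSO libraries, and PGDP1, with 1218, are near copies of members and may share reads with them, while ME2P1 had 60.

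The promoters of the members were read for the letters of regulatory elements named for NADPH and lipid genes. RefSeq (GRCh38.p14) gave 14 windows of 250 bases before to 50 after a transcript start, covering 9 of 9 members. The core of the antioxidant response element, to which NRF2 binds, was searched as TGACNNNGC on both strands and was present in windows of ME1, PGD and IDH1, 3 of 14 windows, against 13.3% of 34796 distinct RefSeq windows. Whether these matches bear on RNA levels was not tested. The stretches around all of them are shown, 2 in ME1 and 1 each in PGD and IDH1. They read 5′ to 3′ on the strand of the gene, with the match in capitals.
ME1, chr6:83431170-83431198: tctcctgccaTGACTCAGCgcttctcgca
ME1, chr6:83431022-83431050: gctgcagtcaGCACCGTCAccccagcagc
PGD, chr1:10398853-10398881: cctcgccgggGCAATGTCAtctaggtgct
IDH1, chr2:208255196-208255224: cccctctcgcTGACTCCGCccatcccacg

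Counted from 0 at the transcript start, with negative positions before it, the matches began at -137 and 11 in ME1, at -201 in PGD and at -143 in IDH1. The second ME1 match and that of PGD are on the opposite strand of the gene and are shown as its complement reads. The IDH1 match overlaps a GC box in its last letters. The sterol regulatory element, searched as TCACNCCAC, and DR4, the LXR element searched as AGGTCA repeated after a gap of 4 bases, were found in 0 of the 14 windows, against 1.12% and 0.0201% of all windows. The E-box CACGTG was found in 4 of the 14 windows, those of ME3, MTHFD1 and NNT, against 7.20% of all windows. The CCAAT box was found in 7 of 14 and the GC box GGGCGG in 8 of 14, against 34.6% and 44.9%, and windows of the same gene can overlap. A match or its lack describes the letters of these windows alone.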

How the data were processed

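RNA of PC3 cells (5 DMSO and 5 GW3965 libraries, grouped by sample title) was analysed from the deposited RPKM values, 1 column per library. Per the labels, the authors aligned to hg38 with HISAT2 2.1.0 and counted with HTSeq 0.11.2, while the methods name mm10 and another Hisat2 version. All gene identifiers are human. The methods describe a stranded total-RNA kit with depletion of ribosomal RNA and the records name polyA RNA. The authors' annotation release is not given in the sources used here. As each gene's RPKM values were whole multiples of 1 step (tolerance 0.001 reads), reads were recovered for 47533 of 47537 genes with a value, 1090 of them scaled by GENCODE 29 lengths. Reads carry no molecular identifiers.

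Genes whose mean reached 0.5 RPKM (20402) were tested on log2(RPKM + 0.1) with limma 3.58.1 in R 4.3.3 (lmFit, eBayes with trend, two-sided, Benjamini-Hochberg over all tested genes, threshold 0.05). This scale understates the change of low genes. The procedure was tested on simulated data. A count test was not used, as the unit is RPKM. Alternatives were pseudocounts, filters, scalings, a replicate block, no trend, library weights, voom on recovered reads, covariates (7SL share, first principal component) and the loss of each library, 22 in all.

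Same-numbered libraries deviated from their group means with correlations over genes from -0.27 to 0.51, so the numbers were not taken as pairs. The members, the lists and the alternatives were chosen with earlier results of these data known. Named genes are the members, the list genes past the threshold or at either end, the 5 genes most like ME1, 4 LXR target genes, and genes that overlap members or are their pseudogenes. Some results that this rule would name are not reported here. ACACA, ACACB, ELOVL6, NSDHL, FADS1, MDH1, ACLY, NADSYN1 and the cell markers are named beside this rule, ACACA, FADS1, MDH1 and NADSYN1 after their values were seen.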

Additional observations from a re-analysis of the deposited data

Results flagged for a closer look

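In 1 of 18 groups of 5 libraries checked over the 9 members, a library stood apart from the others. IDH1 in DMSO library 5, with 14.7 RPKM, had a gap to its nearest neighbour of 0.74 of the whole range on the log2 scale, above the critical value of 0.71 for 5 libraries. Chance alone flags about 1 in 20 groups. In the other DMSO libraries IDH1 lay between 16.9 and 17.7 RPKM.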

How the results depend on the processing

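ME1 kept its direction and passed the threshold in 22 of 22 alternatives, with log2 fold changes from 0.44 to 0.51 and adjusted p from 0.000521 to 0.0264 (limma). The count of members past the threshold was 1 in each of them, and list genes past it numbered 2 to 4 against 3. The highest p came from the replicate block, where ME1 had 0.47. That block changed 30 genes called higher to 14 and, among named genes, ended the calls of SREBF1, MYLIP, FADS2, SHISA3, CPT1A and SERPINB5. Same-numbered libraries had correlations of 0.47, -0.11, 0.04, 0.51 and -0.27, and 1 of 5 DMSO and 2 of 5 GW3965 libraries were closest to their own number. Genes called higher numbered 19 without the trend, 54 with library weights, 60 with voom, 73 with the first principal component as a covariate and 17 to 37 with a library left out. The 2 genes called lower became 1 without a filter, 6 with quantile normalization, 1 without the trend, 5 with voom, 0 with the 7SL share as a covariate (limma, 399 at an unadjusted p under 0.05), 10 with the component as a covariate and 0 to 2 with a library left out. Among the fits without a library, the counts were lowest without DMSO library 3 or GW3965 library 2, 3 or 4, with 17 to 19 higher and 0 lower (limma, 399 to 531 lower at an unadjusted p under 0.05). Without GW3965 library 1, 0 were lower as well (476 at an unadjusted p), and without DMSO library 4 or GW3965 library 5, 1 was. The cause was not tested. ME3 turned from 0.07 to -0.0047 with library weights, and TECR from -0.02 to 0.0124 with weights and 0.00835 with the 7SL covariate, and it ran from -0.0498 to 0.00478 with a library left out, turning positive without DMSO library 4. Neither passed the threshold in any. The other tested members kept their sign and stayed above the threshold in 22 of 22, with a lowest adjusted p of 0.208 for IDH2 (limma). At 827 and 892 summed reads, ME3 was the least precise of the tested members, and 15 to 18 reads of ALDH1L1 allowed no comparison.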
